A study of Mus musculus with 6 samples.

Results

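The RNA of 9 hepatokines and metabolic hormones was followed in mouse liver: Enho, Fgf21, Igfbp1, Igfbp2, Gdf15, Angptl4, Angptl8, Fetub and Lect2. They were chosen by gene symbol from the 52459 rows of a gene count table, and each of the 9 symbols had a row. Enho was picked from these data for its rise in the comparison described here, so its values are given as a description, without a test. RNA-Seq had been done on whole liver of 6 male Alb-Cre/Cas9 mice on a C57BL6J background, 8 months old, each liver from its own mouse. An AAV8 vector had brought in a control guide RNA (sgCtrl, mice 5.1, 7.1 and 7.2) or a guide RNA against Prdx2 (sgPrdx2, mice 1.1, 1.3 and 3.2), and Cas9 was expressed where the albumin promoter drives Cre, that is, in hepatocytes. All 6 mice had received diethylnitrosamine (DEN, 100 mg/kg), which causes liver tumors, and then 6 months of a choline-deficient high-fat diet (CDA-HFD), so both groups carried the Cas9 alleles, the vector and the liver injury. Livers of untreated mice were not analysed here. The study describes islets of cells still positive for the protein, attributed to areas that the vector most likely did not reach. The question was how the loss of Prdx2, a peroxidase that removes hydrogen peroxide, changed the injured liver.

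Hepatokines are proteins that the liver secretes and that act on metabolism in other organs or in the liver itself. Fgf21 is a fasting and stress hormone that signals through FGF receptors with the co-receptor Klb, Gdf15 is a stress cytokine that signals to the hindbrain, and Igfbp1 and Igfbp2 bind insulin-like growth factors in plasma. Angptl4 and Angptl8 restrain lipoprotein lipase, Fetub is a fetuin linked to glucose tolerance, Lect2 is a chemotactic hepatokine linked to insulin resistance, and Enho encodes adropin, a small peptide linked to glucose and lipid metabolism.

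Enho lies on the minus strand of chr4:41638144-41640324 (GRCm38). Its coding sequence is shown because it is a single short frame. It spans chr4:41638612-41638842 of the minus strand, with 231 bases and 76 codons before the stop. The start and stop codons are in capitals, as GENCODE annotates them.
Enho: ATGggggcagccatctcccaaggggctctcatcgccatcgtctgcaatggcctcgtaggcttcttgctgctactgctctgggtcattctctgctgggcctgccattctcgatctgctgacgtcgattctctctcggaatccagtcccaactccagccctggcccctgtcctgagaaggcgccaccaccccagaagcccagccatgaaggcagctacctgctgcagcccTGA

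The 250 bases before the RefSeq transcription start (GRCm38.p6) are shown for Fgf21, Angptl8 and Igfbp1, whose regulation by amino acid stress or insulin is textbook knowledge. Capitals mark matches to TGATGCAA, the core of an amino acid response element, to CAAAACA, the core of an insulin response element, and to the E-box CACGTG, searched on both strands. The 3 motifs do not overlap in these windows.
Fgf21 (chr7:45615491-45615740, minus strand): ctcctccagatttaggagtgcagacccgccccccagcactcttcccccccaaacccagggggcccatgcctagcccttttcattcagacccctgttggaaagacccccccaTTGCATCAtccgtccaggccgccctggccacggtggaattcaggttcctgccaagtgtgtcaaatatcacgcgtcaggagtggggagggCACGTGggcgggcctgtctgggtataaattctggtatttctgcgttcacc
Angptl8 (chr9:21835260-21835509, plus strand): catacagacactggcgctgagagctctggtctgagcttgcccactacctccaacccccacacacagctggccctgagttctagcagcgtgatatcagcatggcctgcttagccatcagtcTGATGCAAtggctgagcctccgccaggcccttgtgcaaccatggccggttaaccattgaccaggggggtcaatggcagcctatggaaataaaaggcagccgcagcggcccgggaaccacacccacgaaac
Igfbp1 (chr11:7197537-7197786, plus strand): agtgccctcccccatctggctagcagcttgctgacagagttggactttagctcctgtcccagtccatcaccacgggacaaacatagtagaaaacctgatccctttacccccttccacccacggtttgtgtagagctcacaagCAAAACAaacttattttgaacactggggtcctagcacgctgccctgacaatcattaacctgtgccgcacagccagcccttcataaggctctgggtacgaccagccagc
The amino acid response core began 139 bases before the start of Fgf21, on the reverse strand, and 130 bases before that of Angptl8, on the forward strand. It was present in 0.895% of all 32851 promoter windows, which also take in 50 bases after the start. The insulin response core stood 108 bases before the start of Igfbp1 and was found in 6.28% of windows. The E-box of Fgf21 stood 50 bases before the start, and 7.15% of windows held that motif, those of Igfbp2 and Gdf15 among them. The forkhead motif TGTTTAC was found in 3.65% of windows, with Fetub as its member. The direct repeat of AGGTCA with a spacer of 1 base was found in 0.0396%, with no member. Igfbp2, Gdf15 and Fetub each have more than 1 window, and their match lay in only 1 of them. The motifs were chosen with the promoters in view, and a match is a description of letters only. Promoters of Enho and Angptl4 were not analysed here.

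The 6 libraries held 37462102 to 56865293 counted reads, and 17032 genes passed the filter on low counts, all 9 members among them. Levels are given as CPM, the counts scaled to a common TMM-normalized library size. Prdx2 RNA itself did not separate the groups, with 109, 117 and 132 CPM in sgCtrl livers and 99.0, 112 and 149 CPM in sgPrdx2 livers (log2 fold change 0.01 ± 0.18, SE). A cut that disrupts the protein need not lower the RNA, so this level neither bears out nor contradicts the labels. Hepatocyte markers stood higher in sgPrdx2 livers, all 20 of 20 by fold change, with a summed level of 96375 to 104376 CPM in sgCtrl livers and 163400 to 219275 CPM in sgPrdx2 livers (ratio 1.94, exact permutation p = 0.1, 2-sided, the smallest that 3 against 3 livers allow). The summed markers of macrophages (0.579), leukocytes (0.676), stellate cells and fibroblasts (0.682), endothelium (0.856), cholangiocytes (0.725) and fetal or tumor cells (0.645) had ratios below 1, each at the same p, and no marker was at 0 in all livers. A few abundant genes carried some of these sums. In sgCtrl livers Ptprc made up 66.6 of the 108 CPM of the leukocyte list. Ly6d made up 226 of the 424 CPM of the fetal and tumor list there. Spp1 made up 1578 of the 1799 CPM of the cholangiocyte list, and Alb 60214 of the 100157 CPM of the hepatocyte list. By the median log2 fold change of their genes, the lists stood at -0.17 for leukocytes, -0.29 for fetal or tumor cells, -0.34 for endothelium, -0.41 for cholangiocytes, -0.56 for macrophages and -0.63 for stellate cells and fibroblasts. In whole liver, fewer cells of a type and less RNA per cell cannot be told apart. Liver 3.2 of the sgPrdx2 group stood apart on the first principal component (61.0, against -39.4 to 19.7 for the others). Its short transcripts, with under 1500 exon bases, lay 0.42 above their log2 mean over the livers. Enho, Fgf21, Lect2 and Angptl8 are this short, with 1269, 951, 919 and 865 exon bases. With the trend on transcript length removed, their log2 fold changes were 2.09, -1.56, 0.66 and 0.76, against 2.31, -1.32, 0.93 and 1.17 in the main fit.

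Enho was the member with the largest change. Its RNA was at 6.44, 15.1 and 9.19 CPM in sgCtrl livers and at 56.1, 39.5 and 57.2 CPM in sgPrdx2 livers. Every sgPrdx2 liver stood well above the highest sgCtrl liver. Mean levels were 10.3 ± 4.45 and 50.9 ± 9.93 CPM (SD, n = 3 each), a log2 fold change of 2.31 ± 0.31 (SE), or 4.96-fold. Of the 14123 genes that averaged 1 CPM or more, 12 had a larger log2 fold change. Because Enho was picked for this rise, its rank and the values that follow only describe it. These values rested on 282 to 681 counts per sgCtrl liver and 1861 to 2464 counts per sgPrdx2 liver. The log2 fold change stayed between 2.07 and 2.70 when each liver was left out in turn. It was 1.40 when libraries were scaled to summed hepatocyte markers, whose own rise moves with it; the part of the markers in the rise of Enho was not tested beyond this value.

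**Figure D1:**
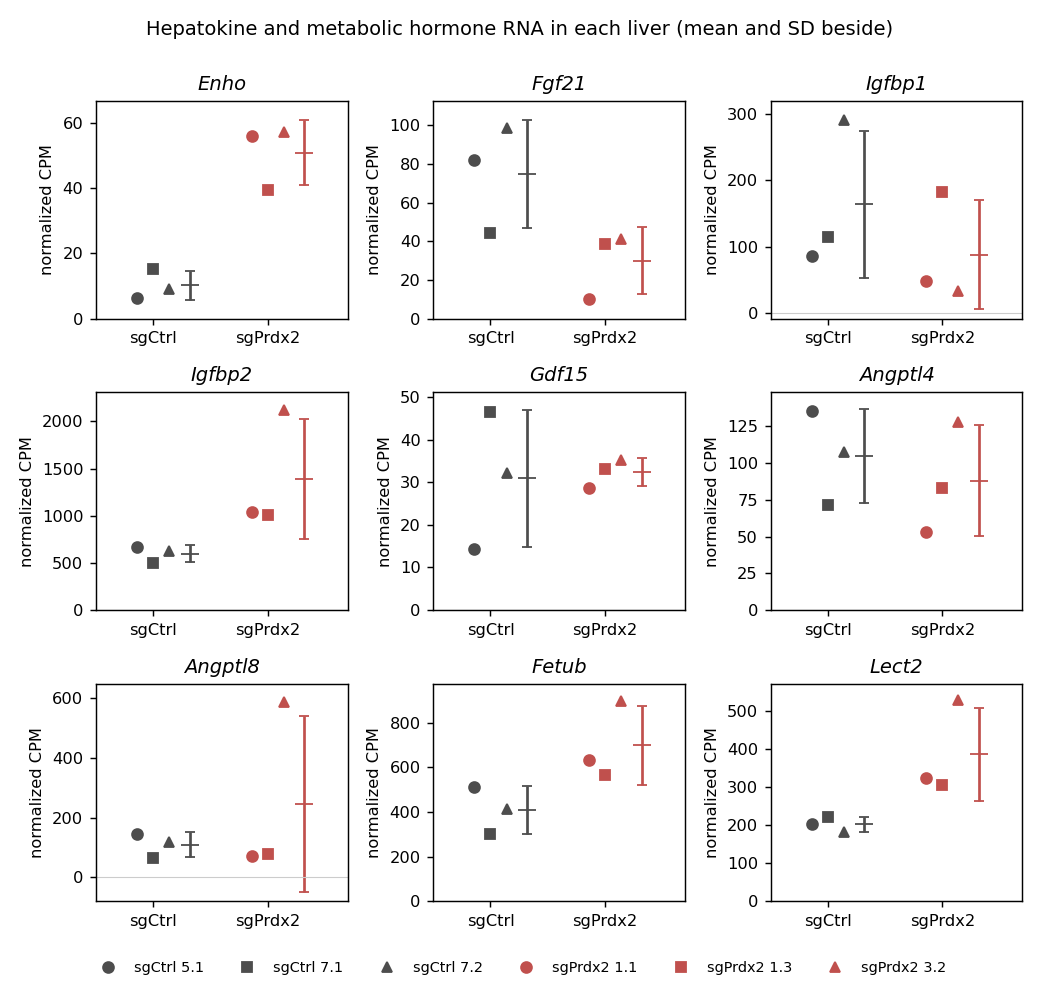
Normalized CPM ( linear axis from 0) of the 9 members, with 1 point for each liver, 3 sgCtrl and 3 sgPrdx2, and the group mean with its SD beside the points. Enho, Igfbp2, Fetub and Lect2 lay higher in all sgPrdx2 livers than in any sgCtrl liver and Fgf21 lay lower, whereas the high mean of Angptl8 came from liver 3.2 alone, at 585 CPM, and its SD bar runs below 0.

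Dnaic1, a ciliary dynein gene on the opposite strand, overlaps the Enho locus and shares 15 exon bases with it. Dnaic1 had 14, 42 and 46 counts in sgCtrl livers and 179, 148 and 94 counts in sgPrdx2 livers. The difference was 2.18 ± 0.39 on the log2 scale (SE), and its counts came to 4.96% to 9.52% of those of Enho in each liver. It is given without a test, because Dnaic1 is named for its overlap with Enho, which was picked for its rise. The strand setting of the counting is not given in the sources used here, so reads of the neighbours may be shared, and this was not tested. The antisense gene Gm12406 had at most 6 counts in any liver. Over the 6 livers, the log2 CPM of Enho was followed most closely by Drc1, Rnf187, Tfr2, Retreg2 and Aldh8a1, with Pearson r of 0.996 to 0.999 among 14123 genes. These points share libraries and the split between the groups, and their log2 fold changes were smaller, from 0.27 for Rnf187 to 0.99 for Drc1.

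None of the other 8 members passed an adjusted p of 0.05 in the edgeR quasi-likelihood test across all genes, in which 3.33% of 17032 genes were called, 1.79% as higher and 1.54% as lower in sgPrdx2 livers. At an unadjusted p under 0.05 stood 4 of the 8 (Fgf21, Igfbp2, Fetub and Lect2), as did 4241 of all genes. Their log2 fold changes were positive for 5 and negative for 3, with a median of 0.42 against -0.02 over all genes. The groups did not overlap for the same 4, or for 5 of 9 members with Enho, and 34.2% of all tested genes did not overlap.

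Of the stress hormones, Fgf21 stood lower. It was at 82.0, 44.2 and 98.3 CPM in sgCtrl livers and at 9.98, 38.4 and 41.3 CPM in sgPrdx2 livers. The ranges did not overlap, but sgPrdx2 liver 1.1 lay far under the other two of its group. The log2 fold change was -1.32 ± 0.51 (SE; adjusted p = 0.161), with means of 74.8 ± 27.7 and 29.9 ± 17.3 CPM. Gdf15 was at 14.3, 46.5 and 32.1 CPM in sgCtrl livers and at 28.7, 33.2 and 35.3 CPM in sgPrdx2 livers. The sgPrdx2 livers lay inside the sgCtrl range, and the log2 fold change was 0.07 ± 0.36 (adjusted p = 0.922).

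Of the binding proteins, Igfbp2 was the most abundant member. It was at 669, 494 and 629 CPM in sgCtrl livers and at 1037, 1004 and 2120 CPM in sgPrdx2 livers. All sgPrdx2 livers lay above all sgCtrl livers, with liver 3.2 highest by far. The log2 fold change was 1.22 ± 0.31 (adjusted p = 0.0696), and it was 0.78 without liver 3.2. Igfbp1, whose transcription insulin represses, was at 86.1, 115 and 290 CPM in sgCtrl livers and at 48.4, 182 and 32.5 CPM in sgPrdx2 livers. The groups overlapped, and the highest liver exceeded the lowest 3.37-fold within sgCtrl and 5.59-fold within sgPrdx2. Its log2 fold change of -0.90 ± 0.68 had an adjusted p of 0.442, and it was -0.19 without sgCtrl liver 7.2 and -1.999 without sgPrdx2 liver 1.3.

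The lipoprotein lipase inhibitors showed no shift common to all livers. Angptl4, a PPAR target induced by fasting, was at 135, 71.2 and 108 CPM in sgCtrl livers and at 53.4, 82.9 and 128 CPM in sgPrdx2 livers (log2 fold change -0.25 ± 0.34, adjusted p = 0.675). Angptl8, which feeding and insulin induce, was at 146, 64.5 and 118 CPM in sgCtrl livers and at 73.3, 78.7 and 585 CPM in sgPrdx2 livers. A single liver, 3.2, was 7.99-fold above the lowest of its group, while the other two lay within the sgCtrl range. The log2 fold change of 1.17 ± 0.78 (adjusted p = 0.384) turned to -0.52 without liver 3.2. Angptl8 lies within an intron of Dock6 on the opposite strand, for which the log2 difference was 0.19 (adjusted p = 0.363).

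Fetub and Lect2, both secreted by hepatocytes, had fold changes of similar size. Fetub was at 513, 300.5 and 414 CPM in sgCtrl livers and at 632, 566 and 898 CPM in sgPrdx2 livers (log2 fold change 0.77 ± 0.25, adjusted p = 0.117). Lect2 was at 204, 223 and 183 CPM in sgCtrl livers and at 325, 306 and 528 CPM in sgPrdx2 livers (log2 fold change 0.93 ± 0.23, adjusted p = 0.0654). In both genes every sgPrdx2 liver exceeded every sgCtrl liver and liver 3.2 was highest, as it was for 5 of 9 members and for 5117 of 17032 tested genes. The median hepatocyte marker had a log2 fold change of 0.94, near that of Lect2. Without liver 3.2 the log2 fold change was 0.56 for Fetub, 0.65 for Lect2 and 0.90 for the median hepatocyte marker.

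The calls depended on the test and on the scaling. DESeq2, which called 14.0% of genes, called Igfbp2 (adjusted p = 0.00100), Lect2 (0.00176) and Fetub (0.0207). Without a filter on low counts edgeR called 3.94% of genes, with Igfbp2 (adjusted p = 0.0196) and Lect2 (0.0241) among them. With plain library totals 19.1% of genes were called, and Fgf21 (adjusted p = 0.0489) was the member called. Scaling to summed hepatocyte markers moved the median of all genes to -0.93 and called 75.6% of them, with Fgf21 at -2.27, Angptl4 at -1.23 and Gdf15 at -0.82 on the log2 scale. Under that scaling Igfbp2 was at 0.22, Lect2 at -0.03 and Fetub at -0.20. With the geometric mean of the same markers, an alternative added after the data were seen, 72.9% of genes were called and Igfbp1 (-1.68, adjusted p = 0.0166) joined those 3 members, whereas with summed markers the adjusted p of Igfbp1 was 0.0559.

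**Figure D2:**
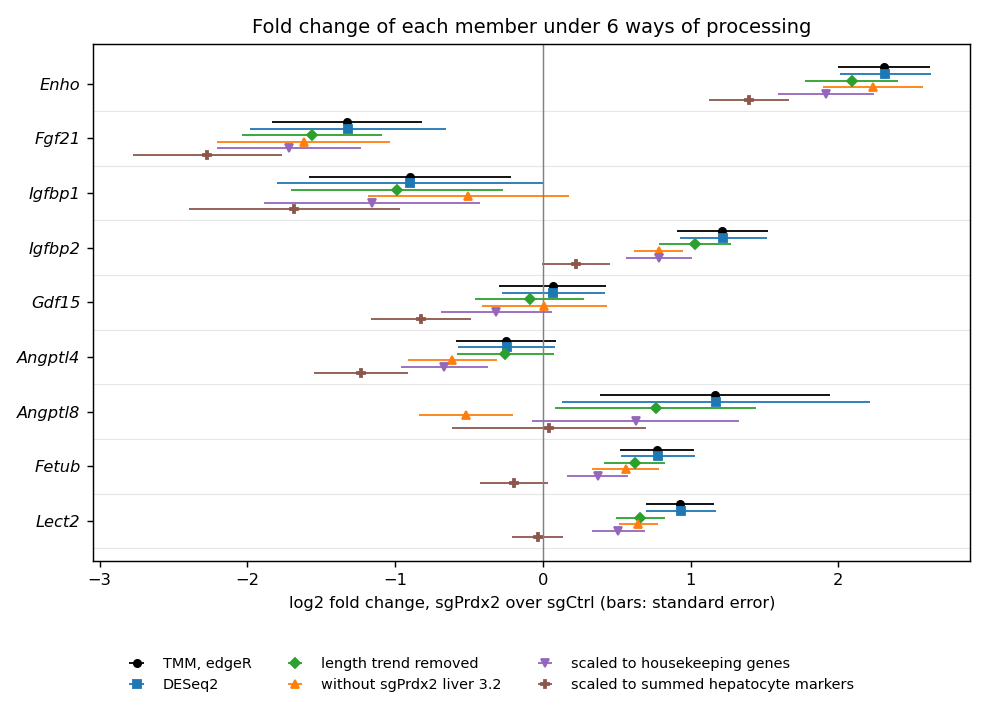
Log2 fold change of each member, sgPrdx2 over sgCtrl, with its standard error, under TMM with edgeR and 5 alternatives. Enho stayed above 0 and Fgf21 below 0 in all 6, Angptl8 crossed 0 without sgPrdx2 liver 3.2, and scaling to summed hepatocyte markers gave each member a lower value than TMM did.

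Levels of different genes were compared as CPM per kilobase of exon (RPKM). In sgCtrl livers the order of median RPKM was Igfbp2 (341), Lect2 (221), Fetub (211), Angptl8 (137), Fgf21 (86.3), Igfbp1 (75.2), Angptl4 (30.4), Gdf15 (17.3) and Enho (7.24). Neighbours in that order overlapped in range except Igfbp2 with Lect2 and Igfbp1 with Angptl4. In sgPrdx2 livers Enho (44.2) followed Igfbp2 (561), Lect2 (354), Fetub (322) and Angptl8 (91.0) and came before Fgf21 (40.4), Igfbp1 (31.7), Angptl4 (23.4) and Gdf15 (17.9). There only Angptl8 and Enho did not overlap as neighbours.

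**Figure D3:**
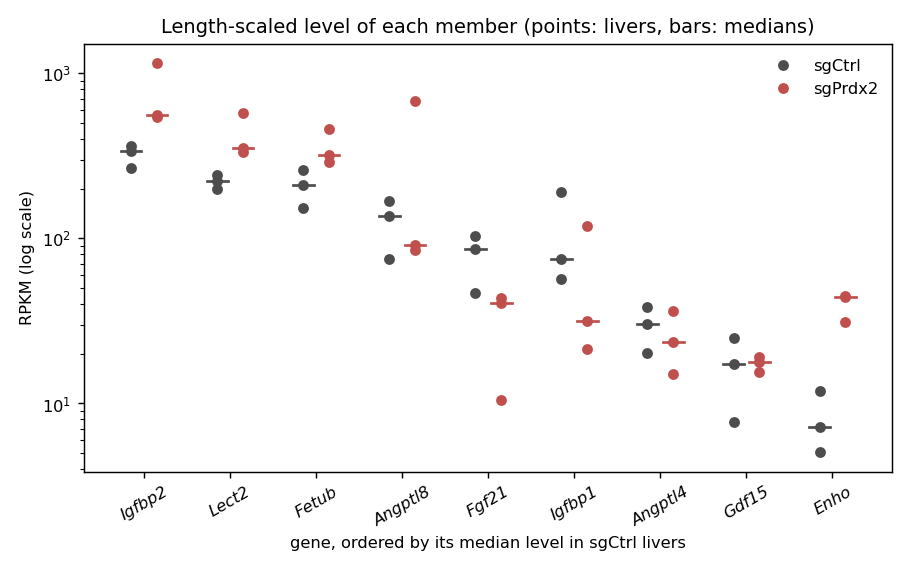
RPKM on a log axis for the 9 members, ordered by their median in sgCtrl livers, with 1 point per liver and a bar at each group's median. Enho moved from the lowest median in sgCtrl livers (7.24) to a place above Fgf21, Igfbp1, Angptl4 and Gdf15 in sgPrdx2 livers (44.2), while Igfbp2, Lect2 and Fetub held the top places in both groups.

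Genes of the pathways around these hormones were described by 7 lists. Of 26 other factors secreted by liver, 1 rose and 2 fell by the edgeR test, or 11.5%, beside 3.33% of all genes. An unadjusted p under 0.05 was found for 15 of them, and for 4241 of all 17032 genes. The groups did not overlap for 16 of them, beside 34.2% of all tested genes. Igfals, which stabilizes insulin-like growth factors in plasma, rose from 53.4 ± 9.97 to 129 ± 33.2 CPM (adjusted p = 0.0394). Inhbb, an activin subunit, fell by 1.57 (adjusted p = 0.0358) and Igfbp5 fell by 1.08 (adjusted p = 0.0491) on the log2 scale. The median of the list was 0.25, and -0.09 with housekeeping scaling. Tsku (-1.53) and Igfbp6 (-1.28) were not called.

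Of 19 receptors and partners 17 were tested and none was called by edgeR. An unadjusted p under 0.05 was found for 6 of them, and for 4241 of all 17032 genes. The GDF15 receptor Gfral was listed at 0 in all livers and its partner Ret did not pass the filter. The largest log2 fold changes were those of Gpr19 (0.72) and of Lmf1, a maturation factor of lipases (0.72), both with an adjusted p of 0.0678, and of Igf2r (-0.51, adjusted p = 0.245). Klb, named for its role and not by rule, was at 17.9 CPM in sgCtrl and 20.8 CPM in sgPrdx2 livers (adjusted p = 0.439).

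The genes of the integrated stress response, the pathway that induces Fgf21 when amino acids are short or the endoplasmic reticulum is stressed, had mostly negative fold changes, as did Fgf21. Of 15 genes 14 had a negative log2 fold change, as did 51.7% of all tested genes, and 2 were called, beside 3.33% of all genes. In this list 5 had an unadjusted p under 0.05, as did 4241 of all 17032 genes. Slc7a11, a cystine transporter, fell by 1.31 (adjusted p = 0.0491) and Mthfd2, a mitochondrial folate enzyme, fell from 8.34 ± 1.58 to 3.89 ± 0.901 CPM (adjusted p = 0.0471). Psat1, of serine synthesis, was at -1.64 (adjusted p = 0.0868) and Nupr1 at -1.37 (adjusted p = 0.194). Of the rest, Trib3 was at -0.93 (edgeR adjusted p = 0.223), Atf3 at -0.87 (0.0587) and Ddit3 at -0.53 (0.579). Atf5 was at -0.38 (0.444), Phgdh at -0.33 (0.589) and Sesn2 at -0.17 (0.549). These genes and the 5 that follow are named after their values were seen. Atf4 (-0.09), Asns (-0.11), Ppp1r15a (-0.14), Stc2 (-0.13) and Chac1 (0.19) lay inside the quartiles of all genes (-0.30 to 0.27). Their edgeR adjusted p ranged from 0.697 to 0.934. Asns was at 2.03, 15.1 and 20.0 CPM in sgPrdx2 livers (SE of its log2 fold change 0.67). Chac1 spread 4.15-fold within sgCtrl and 3.61-fold within sgPrdx2 livers (SE 0.58). For Asns and Chac1, a fold change near 0 was thus not a steady level across livers. The list's median of -0.38 became -0.09 without sgCtrl liver 7.2. That liver was the highest of the 6 for Fgf21, Igfbp1, Psat1, Nupr1 and Mthfd2, and Nupr1 was at 135 CPM there against 28.3 and 44.4 CPM in the other sgCtrl livers.

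**Figure D4:**
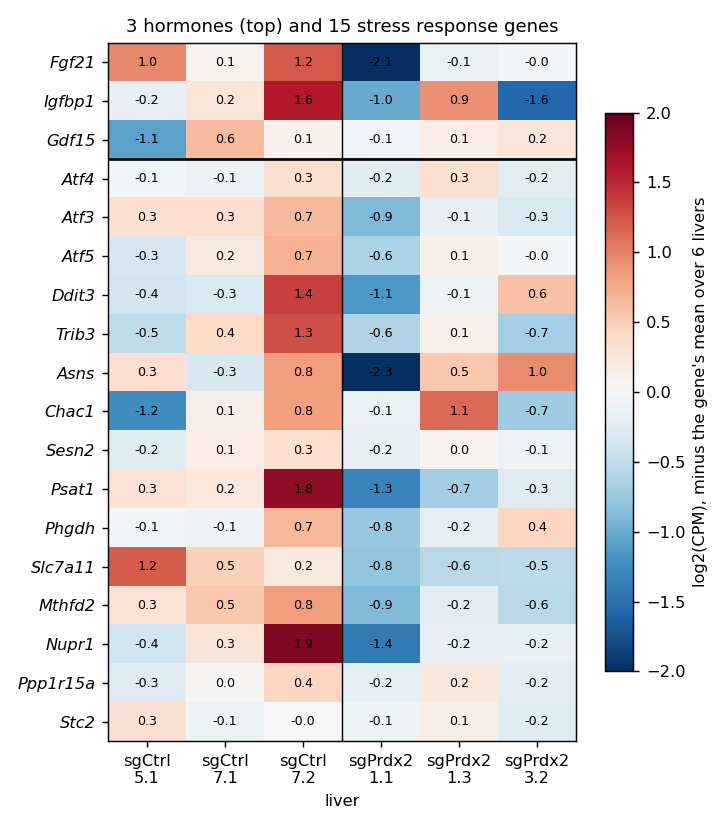
Log2 CPM of Fgf21, Igfbp1 and Gdf15 (top) and of 15 integrated stress response genes in each liver, minus the gene's mean over the 6 livers, in color and in digits. Liver sgCtrl 7.2 had high values in most rows (1.22 for Fgf21, 1.77 for Psat1) and liver sgPrdx2 1.1 low ones (-2.08 for Fgf21, -1.32 for Psat1).

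The remaining lists gave few calls. Over all 17032 genes, 3.33% were called and 4241 had an unadjusted p under 0.05. Of 17 PPARalpha targets none was called by edgeR and 4 had an unadjusted p under 0.05, with Fabp1, a fatty acid carrier, at 1.17 (adjusted p = 0.0722), Creb3l3 at 0.75 (0.0891) and Pdk4 at -0.74 (0.144). Of 15 lipogenic genes Me1, malic enzyme, fell by 1.06 (adjusted p = 0.0373), while Scd1 (-0.70) and Srebf1 (0.69) were not called. In that list 4 genes had an unadjusted p under 0.05. Its median of -0.12 became 0.14 with the length trend removed. All 11 genes of FOXO1 and the insulin response had a positive log2 fold change, as did 48.3% of all tested genes. The median of these genes was 0.20, and it was -0.16 with plain totals and with housekeeping scaling. None of them was called, and 1 had an unadjusted p under 0.05. That gene, Pck1, the rate-limiting enzyme of gluconeogenesis, was at 1.24 (adjusted p = 0.0769), and Trib1 (0.58) and Ppargc1a (0.43) followed. None of 10 ROR and clock regulators was called, and 2 had an unadjusted p under 0.05. Dbp, a clock output factor, was at 1.23 (adjusted p = 0.0820), Arntl at -1.04 (0.354) and Nr1d1 at 0.67 (0.153).

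**Figure D5:**
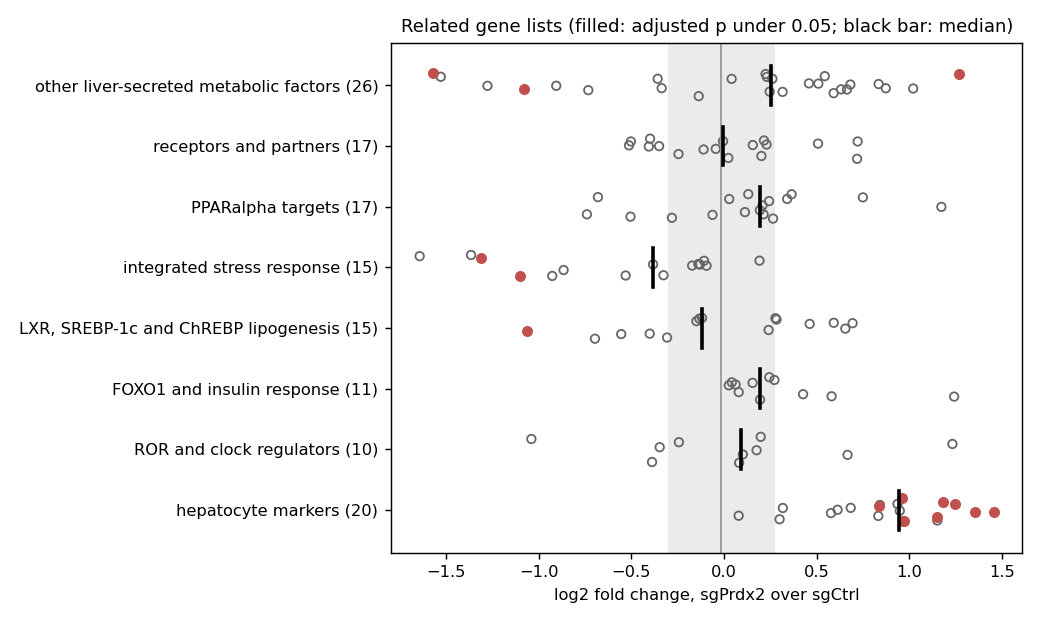
Log2 fold change of every tested gene of the 7 lists and of the 20 hepatocyte markers, with called genes filled, a black bar at each list's median, a grey line at the median of all genes (-0.02) and a band from their lower to upper quartile (-0.30 to 0.27). The hepatocyte markers lie highest, with a median of 0.94, and the integrated stress response lowest, at -0.38.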

How the data were processed

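Per the labels, RNA had been harvested from frozen liver with Trizol; the study's methods for mouse livers name Tri Reagent and a Direct-zol kit. The authors deposited 1 table of counts, the whole-number reads per gene and liver without normalization. The submitters' processing notes name HISAT2, HTSeq, DESeq2 and GRCm38; versions, annotation and strand setting are not given in the sources used here. A second table, with the authors' own comparison of the groups, was not used.

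The tests were run with edgeR 4.0.16 under R 4.3.3: filterByExpr (minimum count 10), TMM, and the quasi-likelihood test with Benjamini-Hochberg adjustment over 17032 genes, on 3 against 3 livers with no covariate. Genes with an adjusted p under 0.05 were called. DESeq2 1.42.0 was an alternative. Marker sums used exact permutation tests. Exon lengths came from GENCODE, in which 91.5% of symbols matched. The steps were tested on simulated data. Members, lists and motifs were chosen with earlier results of these data known. Named genes were the members, Prdx2, overlapping genes, the 5 genes most like Enho, and, per list, called genes and the 3 largest log2 fold changes among genes averaging 1 CPM or more. Scaling to hepatocyte markers was planned on their summed counts without albumin. It was first computed on their geometric mean by mistake, and that version is kept as an alternative added after the data were seen.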

Additional observations from a re-analysis of the deposited data

How the results depend on the processing

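With 3 livers per group and 1 sgPrdx2 library that stands apart, calls were fragile: leaving out 1 liver gave 0 to 619 called genes in all, 0 to 5 in the 7 lists, and 0 in each fit among the 8 members other than Enho, while 3114 to 4436 genes had an unadjusted p under 0.05. The 567 genes called in all became 3247 with plain library totals, 989 with housekeeping scaling, 12876 with summed hepatocyte markers, 12424 with their geometric mean (added after the data were seen), 2066 with DESeq2 and 1128 without a filter. In the same order, the 6 genes called in the lists became 20, 12, 71, 75, 25 and 14. The members called other than Enho became 1 with plain totals, 3 with summed hepatocyte markers, 4 with their geometric mean, 3 with DESeq2 and 2 without a filter, and stayed at 0 with housekeeping scaling. Under alternatives the 8 members had 128 log2 fold changes. Of these, 106 kept direction and side of the threshold, 13 passed it and 11 changed sign. Both happened for 2 values, those of Gdf15 with hepatocyte scaling. Fits without sgCtrl liver 5.1 or 7.2, or without sgPrdx2 liver 1.1 or 1.3, called 0 of all genes. No member could pass the threshold there, so keeping its side in those fits was fixed in advance. Of 16 values of Enho, 14 lay between 1.92 and 2.70, against 2.31 in the main fit, and those with hepatocyte scaling were lower (1.40 and 1.46). Gdf15 changed to -0.30 with plain totals, -0.31 with housekeeping scaling, -0.82 with summed markers, -0.76 with their geometric mean and -0.0896 with the length trend removed. Fetub changed to -0.20 with summed markers and -0.17 with their geometric mean, and Lect2 to -0.0334 with summed markers. Scaling to hepatocyte markers subtracts their own rise from every gene. Genes as a whole also stood lower with plain totals and with housekeeping scaling. The middle value over all tested genes moved from -0.02 in the main fit to -0.39 and -0.38, respectively. Of the 6 housekeeping genes, 5 stood higher in sgPrdx2 livers in the main fit, with a median of 0.43. The cause of the sign changes outside hepatocyte scaling was not tested beyond these values. Leaving out each liver gave Gdf15 -0.28 to 0.48, Angptl4 -0.61 to 0.0101, Igfbp1 -1.999 to -0.19 and Angptl8 -0.517 to 1.603. Prdx2 turned to -0.00462 with upper-quartile normalization, -0.37 with plain totals, -0.38 with housekeeping scaling, -0.93 with summed markers, -0.89 with their geometric mean, -0.00496 without a filter and -0.0374 with the length trend removed, and ranged from -0.17 to 0.13 over the livers left out (-0.0521 without sgCtrl 5.1, -0.00809 without sgCtrl 7.1). With plain totals the log2 ratios of marker sums were 0.57 for hepatocytes, -1.16 for macrophages, -0.93 for leukocytes, -0.92 for stellate cells and fibroblasts, -0.59 for endothelium, -0.83 for cholangiocytes and -1.01 for fetal or tumor cells. Ordered by the longest transcript instead of all exons, 7 of 9 members kept their rank in each group. No paired analysis was possible because the groups share no replicate number.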
